A study of Oryza sativa with 12 samples.

Results

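Of the 73781 rows of assembled loci in the deposited expression table, 9703 carried no gene name, and 1927 of these unnamed loci reached at least 1 FPKM in at least 1 of the 4 groups measured. The 1927 loci were selected on the missing name and on this level, where FPKM stands for fragments per kilobase of transcript at a common number of mapped fragments. They made up 19.9% of the unnamed rows and 8.26% of the 23322 rows that reached 1 FPKM, against 21395 named rows (33.4% of all named rows). Of the remaining unnamed rows, 7028 were above 0 and under 1 FPKM everywhere and 748 were listed at 0 in every group.

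The peduncle is the topmost internode of the rice stem, which pushes the panicle out of the flag leaf sheath at heading. Peduncles of 2 field-grown indica cultivars, the shorter Swarna and the taller Pokkali, were taken 2 to 4 days after heading, when elongation had stopped (NP), and 2 to 4 days before heading, while they were elongating (EP). The groups were therefore Swarna NP, Swarna EP, Pokkali NP and Pokkali EP, of 3 libraries each (12 in all), with no treatment and no mutant. Each cultivar is a single genotype, so cultivar differences are between these 2 lines only. According to the paper, Pokkali headed later after sowing than Swarna, so the cultivars also differ in plant age at each stage. NP and EP differ in plant age and in collection time as well as in elongation. The whole peduncle was used, so that a change in the mix of its cells and a change of RNA level within cells cannot be told apart.

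The table held 1 FPKM value per locus and group, in which the 3 libraries were already combined. There was thus no spread between replicates, no read count behind a value and no test, and each ratio below is a description of 2 group values without a replicate check. Since low FPKM values rest on the fewest fragments and the counts were not given, the depth behind a single locus is unknown. The column sums were 731253 FPKM in Swarna NP, 415190 in Swarna EP, 601220 in Pokkali NP and 519921 in Pokkali EP, so the groups were not on an equal sum. Levels of 3 cellulose synthase genes were read in each group. No marker of another organ was set beside them, so they cannot test the tissue label. CESA4, a subunit of the secondary wall enzyme, had 5.94 FPKM in Swarna NP, 54.9 in Swarna EP, 138 in Pokkali NP and 264 in Pokkali EP, and CESA7, another such subunit, had 5.25, 68.1, 49.8 and 170 FPKM in the same order. CESA1, of the primary wall enzyme, had 57.1, 179, 94.1 and 309 FPKM in that order, so all 3 were detected in every group and were lowest in Swarna NP.

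An unnamed locus is a place where reads were joined into a transcript that received no annotated gene's name when the assemblies were merged. Such loci in plants can be long noncoding RNAs, RNAs antisense to a gene, expressed transposons, small structural RNAs of the nucleus, or untranslated parts of a neighbouring gene that the annotation leaves out. Libraries of total RNA, as used here, also hold RNAs without a poly(A) tail, and a cultivar can carry sequence that differs from the reference genome, so that its reads align less well at some loci. The table gives neither strand, exons nor sequence, and the class of an unnamed locus was not determined.

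Most unnamed loci were short and alone. The table gives for each row the span of the assembled cluster it belongs to, on release 7 of the genome by the Rice Genome Annotation Project, and rows of the same cluster share a span. The table held 57742 distinct spans, of which none overlapped another. Of the 1927 unnamed loci, 1346 (69.8%) were the sole row of their span, and their spans had a median of 436 bp, ranging from 200 to 26666 bp. Of these, 484 were shorter than 300 bp. A further 352 loci (18.3%) shared a span with other unnamed rows only (median span 1311 bp), and 229 (11.9%) shared one with a named row (median span 17429 bp). Spans of the named rows had a median of 4407 bp. For the loci in shared spans, position and length are those of the whole span, and their own extent was not given.

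In the table, the identifiers of each chromosome run along it in 2 ascending runs. Such assemblies are commonly sorted by chromosome and then strand, so the runs may be the strands, which was not tested because the table has no strand column. The unnamed loci were divided nearly evenly between them, with 907 in the first and 1016 in the second. A further short run of 27 rows, all unnamed, held 4 of the loci, XLOC_013302, XLOC_030880, XLOC_045506 and XLOC_057828. In each of these 4, Swarna NP was at least 2-fold lower than Swarna EP, with values of at most 0.579 FPKM in Swarna NP against 1.17 to 1.93 FPKM in Swarna EP.

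The extremes of length show what a span can stand for. The longest spans with an unnamed locus held XLOC_011308 (chr10:3167814-3538890, 371077 bp, shared by 74 rows) and XLOC_027523 (chr2:2308966-2619557, 310592 bp, shared by 56 rows). XLOC_011308 had 3.68 FPKM in Swarna NP, was listed at 0 in Swarna EP, and had 0.548 FPKM in Pokkali NP and 0.993 in Pokkali EP. XLOC_027523 had 1.40, 2.15, 1.42 and 1.52 FPKM in Swarna NP, Swarna EP, Pokkali NP and Pokkali EP. Both were low rows inside large named clusters, whose length says nothing of their own. The shortest were XLOC_008154 (chr1:36787952-36788151) and XLOC_008471 (chr1:39585350-39585549), of 200 bp each and alone in their spans. XLOC_008154 was listed at 0 in Swarna NP and had 0.144 FPKM in Swarna EP, 0.260 in Pokkali NP and 1.002 in Pokkali EP. XLOC_008471 had 0.947 FPKM in Swarna NP against 7.09 in Swarna EP, and 1.04 FPKM in Pokkali NP against 4.21 in Pokkali EP, lower in NP in both cultivars.

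Most unnamed loci were also close to the level that selected them. In their highest group, the unnamed loci had a median of 2.16 FPKM, against 10.6 FPKM for the named rows, and 914 of them (47.4%) stayed under 2 FPKM, against 14.1% of the named rows. A level of 10 FPKM or more was reached by 279 unnamed loci (14.5%), against 51.5% of the named rows. At the threshold itself, XLOC_012671 (chr10:17164718-17165899) was just inside with 1.00016 FPKM in Swarna NP, and XLOC_036289 (chr3:15042520-15042873) was just outside with 0.9998 FPKM in Pokkali NP. Among the loci alone in their span, the median level increased with span length, being 1.70 FPKM from 200 bp, 1.79 from 300 bp, 2.24 from 500 bp, 2.64 from 1000 bp and 3.30 from 3000 bp, each class ending where the next begins. The named rows alone in their span had medians of 2.85, 3.96, 6.14, 8.66 and 13.3 FPKM in the same length classes, higher in each.

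A small number of loci held most of the summed FPKM of the unnamed loci. Since FPKM is divided by transcript length, these shares are not shares of reads and weigh short loci more. The unnamed loci together took 7.86% of the FPKM sum in Swarna NP, 10.2% in Swarna EP, 7.77% in Pokkali NP and 10.3% in Pokkali EP. Only 48 reached 100 FPKM in a group and 13 reached 1000 FPKM. The 10 loci of highest mean level held 76.0% of the summed FPKM of all unnamed loci in Swarna NP, 64.1% in Swarna EP, 71.6% in Pokkali NP and 69.6% in Pokkali EP. The Swarna NP share includes 7380 FPKM of XLOC_026454, which was listed at 0 in the other groups and is uncertain, as described below. The highest 2 alone held 47.8, 32.7, 40.02 and 38.5% in the same order.

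The locus of highest mean level was XLOC_062983 (chr7:24243511-24243837, 327 bp), with 18182 FPKM in Swarna NP, 6559 in Swarna EP, 8970 in Pokkali NP and 7615 in Pokkali EP. It stood apart in Swarna NP, where it was 2.77-fold higher than in Swarna EP and 2.03-fold higher than in Pokkali NP, while the other 3 groups lay close together. Here and below, a nearest named row or neighbour is the nearest named row of 1 FPKM or more in at least 1 group. Named rows under that level may lie closer. Those nearest to XLOC_062983 were LOC_Os07g40450 at 141 bp and LOC_Os07g40460 at 108 bp. They had 3.11 to 4.27 and 4.70 to 9.13 FPKM over the groups, far under the level of XLOC_062983. XLOC_034857 (chr3:1715491-1715959, 469 bp) had 9269 FPKM in Swarna NP, 7325 in Swarna EP, 9714 in Pokkali NP and 12925 in Pokkali EP, and none of its 4 ratios reached 2-fold. It lay 260 bp from LOC_Os03g03810, whose row in the same run had 0.328, 0.517, 0.633 and 1.01 FPKM in the same order of groups, and whose row in the other run had 233, 454, 1132 and 1186 FPKM. XLOC_007126 (chr1:27235735-27236281) had 3217, 2291, 3892 and 2756 FPKM in that order, somewhat higher in NP in both cultivars, and XLOC_043442 (chr4:16289088-16289417) had 2169, 2000, 3712 and 2598 FPKM.

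The other loci of this level were mostly lower in Swarna NP than in the other groups. XLOC_016243 (chr11:3364774-3365045, 272 bp) had 1328 FPKM in Swarna NP against 3804 in Swarna EP, and 2740 FPKM in Pokkali NP against 4104 in Pokkali EP. XLOC_018991 (chr12:4677557-4677762, 206 bp) had 659 FPKM in Swarna NP against 2350 in Swarna EP, and 1025 FPKM in Pokkali NP against 1574 in Pokkali EP. XLOC_029889 (chr2:27133957-27134195, 239 bp) had 664 and 1135 FPKM in Swarna NP and EP, and 1247 and 1509 FPKM in Pokkali NP and EP. Among the 9 of these 10 loci that were above 0 in all groups, XLOC_031415 (chr3:4701223-4701509, 287 bp) had the largest ratio of its highest to its lowest group, with 91.3 FPKM in Swarna NP, 688 in Swarna EP, 765 in Pokkali NP and 2718 in Pokkali EP. It was lower in NP in both cultivars (log2 ratio −2.91 in Swarna and −1.83 in Pokkali) and lower in Swarna at both stages. Its named neighbours, LOC_Os03g09045 at 1036 bp and LOC_Os03g09070 at 454 bp, stayed under 6 FPKM in every group. In the plot of these 10 loci, the Swarna NP value of 5 of the 9 loci detected in all groups is the lowest of the 4.

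**Figure D1:**
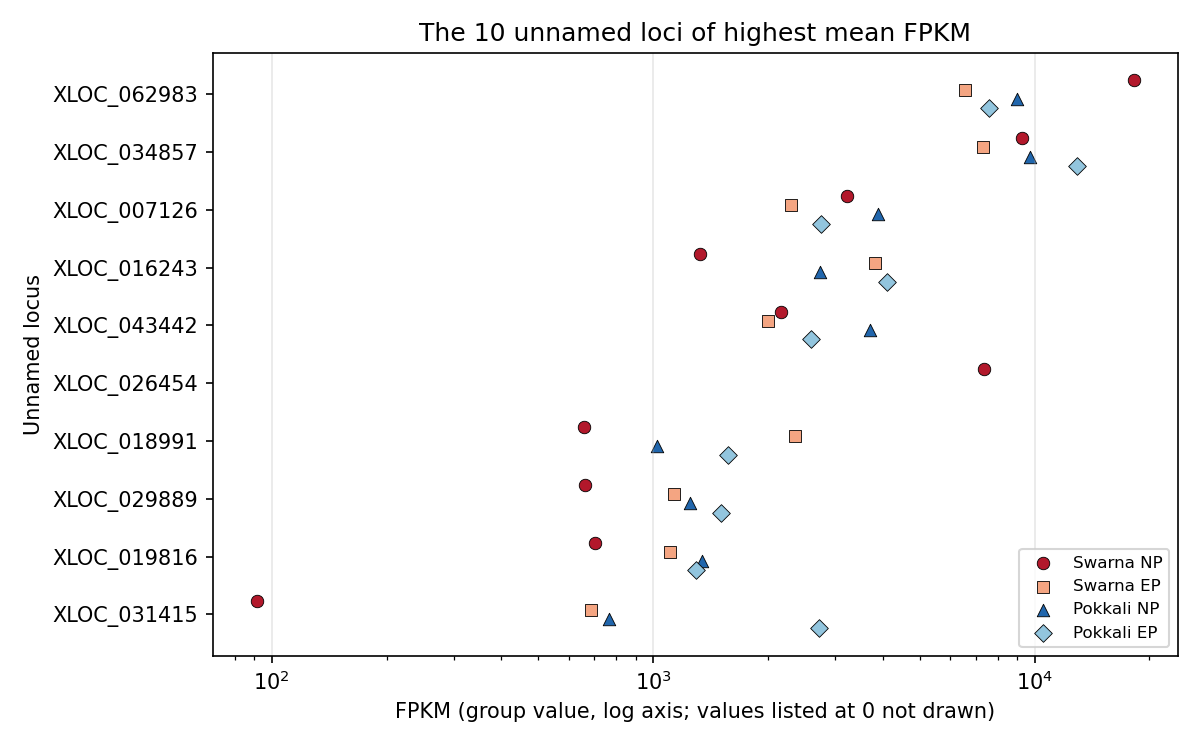
The 10 unnamed loci of highest mean FPKM, 1 row each, with the group values on a log axis (Swarna NP, Swarna EP, Pokkali NP and Pokkali EP as symbols; values listed at 0 are not drawn). XLOC_062983 and XLOC_034857 lie at 6559 FPKM or more in every group, and XLOC_026454 is drawn in Swarna NP only, at 7380 FPKM.

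The remaining locus of the 10, XLOC_026454, was measured in Swarna NP alone. It had 7380 FPKM there and was listed at 0 in Swarna EP, Pokkali NP and Pokkali EP. It shares its span (chr2:28715348-28721985, 6638 bp) with 4 further unnamed rows, among them XLOC_026453 with 1152 FPKM in Swarna NP, and all 5 rows were listed at 0 in the other 3 groups. No other span with an unnamed locus of 100 FPKM or more had whole groups at 0. An exact 0 across a cluster can come from an estimate that failed in those groups as well as from an absence of reads, and the table does not tell these apart, so no fold is given. The named rows of 1 FPKM or more nearest to XLOC_026454 were LOC_Os02g47020 at 10826 bp and LOC_Os02g47030 at 9133 bp. The former had 5.96 FPKM in Swarna NP, 10.2 in Swarna EP, 84.2 in Pokkali NP and 24.6 in Pokkali EP. The latter had 0.956 to 1.51 FPKM over the groups, and neither was highest in Swarna NP.

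Ratios were taken on log2 of FPKM plus 0.5, a constant that keeps very low values from giving very large ratios, and a ratio of at least 2-fold in size was counted. Counts are set beside the same count over all 23322 rows of 1 FPKM or more, named and unnamed, which is the background. Both counts are descriptions, since the values that selected the loci are those in the ratios.

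Between the stages, unnamed loci passed 2-fold somewhat less often than the background in both cultivars with a constant of 0.5, an order that turned with a smaller constant. In Swarna, 482 unnamed loci (25.01%) were higher in NP than in EP, against 27.1% of all rows, and 420 (21.8%) were lower, against 24.3%. In Pokkali, 250 (13.0%) were higher in NP than in EP, against 15.6% of all rows, and 229 (11.9%) were lower, against 14.3%. The median log2 ratio of the unnamed loci was 0 in Swarna and 0 in Pokkali, against 0.05 over all rows in each cultivar. With a constant of 0.1, the unnamed loci passed more often than the named rows. In Swarna NP/EP, 31.5% were then higher, against 29.5% of the named rows, and 28.4% lower, against 28.0%, and in Pokkali NP/EP 22.6% were higher, against 19.7%, and 17.1% lower, against 16.9%. With equal column sums, 44.8% were lower in Swarna NP than in Swarna EP, against 41.6% of the named rows. Over all levels, shares this near the background say little about the unnamed loci as a group, since the levels differ. In Swarna NP/EP at 1 to 2 FPKM in the highest group, 25.2% of unnamed loci were higher, against 21.6% of named rows. Lower were 19.9% against 24.2%. At 2 to 5 FPKM 23.2% were higher, against 17.5%, and 20.97% lower, against 34.2%. At 5 to 10 FPKM 26% were higher, against 16.4%, and 26% lower, against 31.995%. At 10 to 100 FPKM the order turned, with 27.7% higher, against 32.5%, and 25.1% lower, against 19.7%. Like the named rows, the unnamed loci passed 2-fold more often in Swarna than in Pokkali.

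Between the cultivars, unnamed loci passed 2-fold more often than the background, most of all at EP on the Swarna side. At EP, 411 unnamed loci (21.3%) were higher in Swarna than in Pokkali, against 8.86% of all rows, and 254 (13.2%) were lower, against 10.3%. At NP, 562 (29.2%) were higher in Swarna than in Pokkali, against 22.0% of all rows, and 380 (19.7%) were lower, against 19.9%. The median log2 ratio of Swarna to Pokkali was 0.19 at EP and 0.06 at NP for the unnamed loci, against −0.03 and 0.04 over all rows. Thus at EP, where the named rows of both cultivars were most alike (17.7% past 2-fold in either direction), 34.5% of the unnamed loci were past 2-fold.

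**Figure D2:**
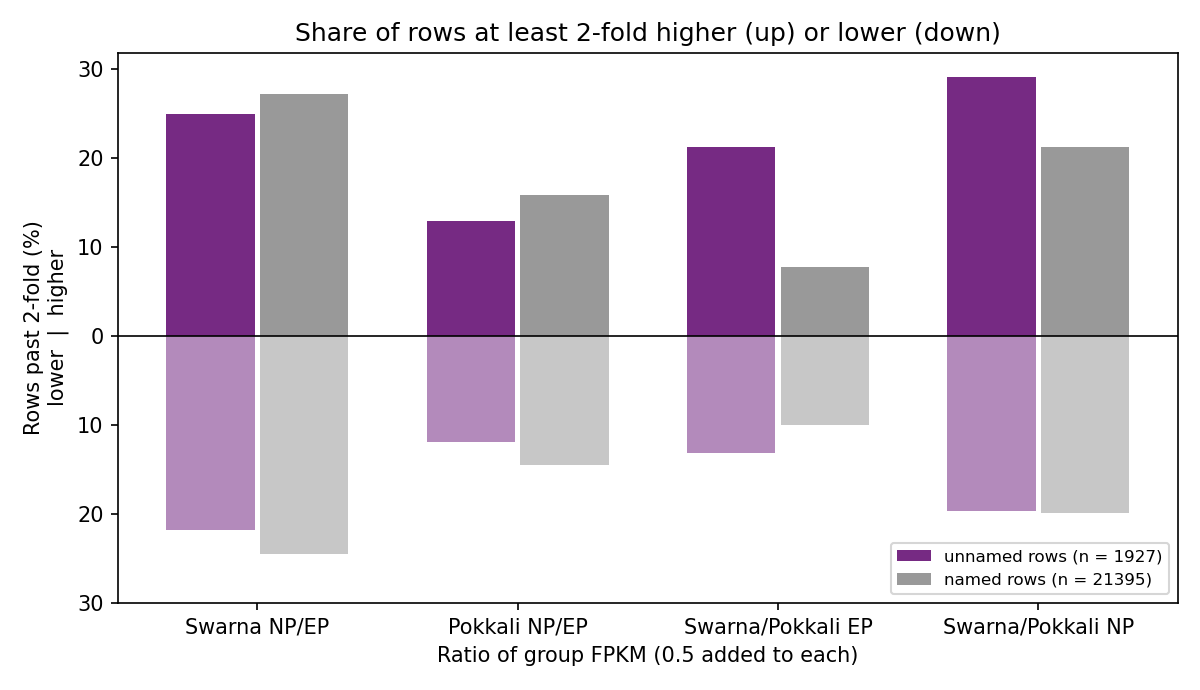
Percent of rows at least 2-fold higher (bars up) or lower (bars down) in each of the 4 ratios, for the 1927 unnamed loci (purple) and the 21395 named rows (grey) of 1 FPKM or more. At EP, 21.3% of the unnamed loci are higher in Swarna than in Pokkali, against 7.74% of the named rows, and 13.2% are lower, against 9.99%.

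Since unnamed loci were lower than named rows, the shares were also compared within classes of the highest level. At EP the share higher in Swarna than in Pokkali was 21.7% of 914 unnamed loci, against 11.3% of 3006 named rows, at 1 to 2 FPKM, and 26.4% of 534 against 10.5% of 3902 at 2 to 5 FPKM. It was 20.5% of 200 unnamed loci, against 8.69% of 3463 named rows, at 5 to 10 FPKM, and 12.6% of 231 against 5.39% of 9442 at 10 to 100 FPKM. The larger Swarna-side share of the unnamed loci was therefore present in all classes under 100 FPKM. The share lower in Swarna at EP was also larger among unnamed loci in each of these classes. It was 11.3% against 6.52%, 13.9% against 7.59%, 16.0% against 7.74% and 15.2% against 11.2% in the same order, so the unnamed loci differed more in both directions. In the class of 100 FPKM or more, the share higher in Swarna was 4.17% of 48 unnamed loci and 6.19% of 1582 named rows, a difference of few loci. In this highest class the stage ratios also differed from those of named rows. In Swarna, 25% of the 48 unnamed loci were higher in NP than in EP, against 54.4% of the named rows, and 33.3% were lower, against 14.6%. In Pokkali, 12.5% were higher, against 35.3% of the named rows, and 20.8% were lower, against 12.6%.

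The direction of these shares depends on the scale and the minimum. With the 4 columns brought to equal sums, the higher calls fell to 21.2% of all Swarna NP/EP calls among unnamed loci, against 53.4% as deposited, and to 41.3% against 52.2% for Pokkali NP/EP. For Swarna over Pokkali the higher calls made up 74.7% against 61.8% at EP, and 47.6% against 59.7% at NP. This scaling moved the median log2 ratio of all rows by −0.77, −0.13, 0.26 and −0.20 in the same order of ratios, so that for Swarna NP/EP the unnamed loci moved with the whole table. Among the 279 unnamed loci of 10 FPKM or more, the higher calls made up 40.8% at EP and 47.2% at NP for Swarna over Pokkali, so the excess of higher over lower calls on the Swarna side lay among loci under 10 FPKM. At EP this lean was not particular to unnamed loci. Named rows had 339 higher and 196 lower at 1 to 2 FPKM, 409 and 296 at 2 to 5, and 301 and 268 at 5 to 10. At NP named rows leaned so at 1 to 2 FPKM (664 and 427), but not at 2 to 5 (707 and 834) or 5 to 10 (538 and 792).

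The stage ratios of the cultivars were less alike across unnamed loci than across named rows. Pearson's r between the Swarna and the Pokkali log2 NP/EP ratio was 0.40 over the 1927 unnamed loci (Spearman's rho 0.38), against 0.66 over the named rows. Over the 279 unnamed loci of 10 FPKM or more r was 0.54, against 0.70 over named rows of that level. These are correlations across loci within the same 4 columns, and loci are not independent replicates. At least 2-fold in the same direction in both cultivars were 93 loci (4.83%) higher in NP, against 10.6% of the named rows, and 109 (5.66%) lower in NP, against 10.5%. The directions were opposite at 21 loci, with shares near those of the named rows. Of these, 8 (0.415%, against 0.360% of the named rows) were higher in Swarna NP and 13 (0.675%, against 0.668%) higher in Pokkali NP. In Swarna alone 679 loci passed (35.2%, against 29.7% of the named rows), and in Pokkali alone 256 (13.3%, against 8.20%).

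**Figure D3:**
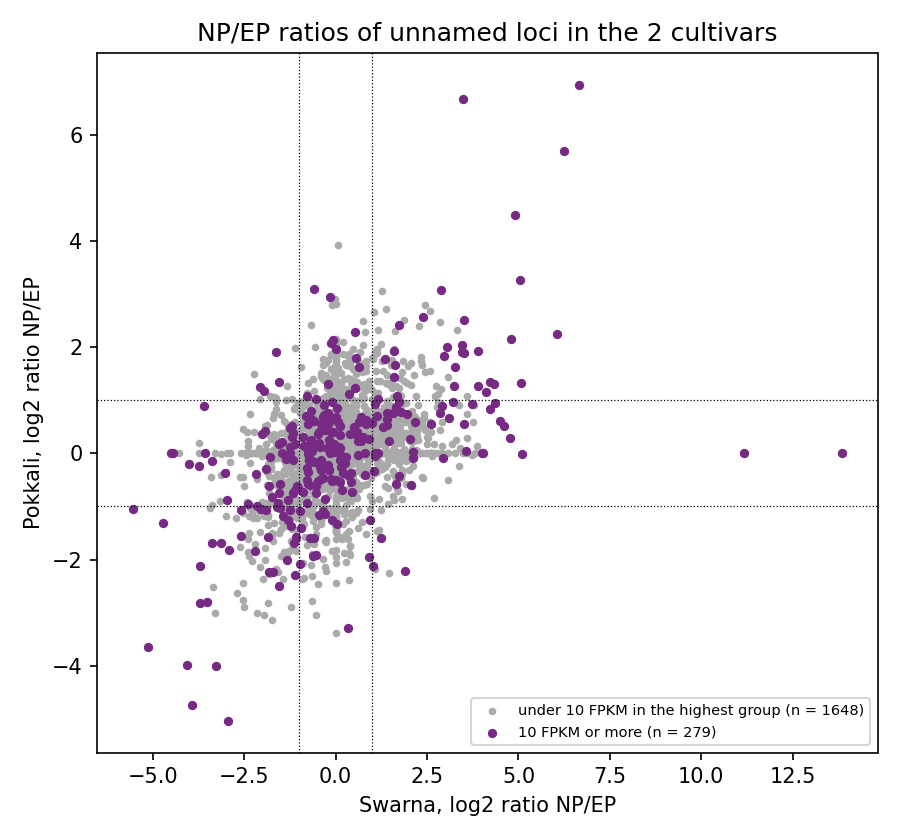
Log2 ratio of NP to EP in Pokkali (vertical) against that in Swarna (horizontal) for each of the 1927 unnamed loci, after adding 0.5 to each FPKM; purple points are the 279 loci of 10 FPKM or more in the highest group and dotted lines mark 2-fold. The loci at the upper right are higher in NP in both cultivars, and the purple points farthest to the right on the horizontal zero line are XLOC_026454 and XLOC_026453, listed at 0 in both Pokkali groups.

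Of the loci higher in NP in both cultivars, the 4 of largest mean ratio with at least 10 FPKM in NP of each cultivar are given first. XLOC_059934 (chr7:22426863-22427144, 282 bp) had 62.0 FPKM in Swarna NP against 0.121 in Swarna EP, and 61.0 FPKM in Pokkali NP while it was listed at 0 in Pokkali EP. It lay 77 bp from a row named LOC_Os07g37454 and LOC_Os07g37470 in the same run, which had 38.7 FPKM in Swarna NP against 0.0382 in Swarna EP, and 30.4 FPKM in Pokkali NP against 0.111 in Pokkali EP. The unnamed locus and its neighbour thus had nearly the same profile. XLOC_058191 (chr7:3633858-3635207) had 41.1 FPKM in Swarna NP against 0.0438 in Swarna EP, and 53.4 FPKM in Pokkali NP against 0.537 in Pokkali EP. The named row of 1 FPKM or more nearest in its own run, LOC_Os07g07260 at 19454 bp, had 14.1 to 28.2 FPKM over the groups. The one in the other run, named LOC_Os07g07290 and LOC_Os07g07300 and 2993 bp away, had 87.2 FPKM in Swarna NP against 0.0751 in Swarna EP, and 7.65 FPKM in Pokkali NP against 0.0121 in Pokkali EP, so it shared the direction.

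XLOC_063326 (chr7:27823780-27825706, 1927 bp) had 62.9 FPKM in Swarna NP against 1.61 in Swarna EP, and 141 FPKM in Pokkali NP against 5.80 in Pokkali EP. Its neighbour at 72 bp, LOC_Os07g46590, had 36.1, 22.0, 21.8 and 20.5 FPKM in Swarna NP, Swarna EP, Pokkali NP and Pokkali EP, so closeness alone did not go with a like profile. XLOC_055956 (chr6:12358608-12360164) had 484 FPKM in Swarna NP against 41.9 in Swarna EP, and 153 FPKM in Pokkali NP against 26.4 in Pokkali EP. At 503 bp from it, LOC_Os06g21390 had 19.4, 9.68, 16.4 and 12.2 FPKM in the same order of groups, higher in NP by under 2-fold in both cultivars once 0.5 was added. XLOC_018322 (chr11:27002542-27003484) was listed at 0 in both EP groups but had 5.08 FPKM in Swarna NP, with 50.3 in Pokkali NP. These 5 loci were picked for their large NP/EP ratios. At EP they had at most 5.80 FPKM in either cultivar, except that XLOC_055956 was already above 20 FPKM. At NP all had 5.08 FPKM or more in both cultivars.

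Among the loci lower in NP in both cultivars, XLOC_052370 (chr6:6488621-6489212, 592 bp) had 2.95 FPKM in Swarna NP against 120 in Swarna EP, and 45.9 FPKM in Pokkali NP against 583 in Pokkali EP. Its neighbour at 67 bp, LOC_Os06g12110, had 2.39 to 3.60 FPKM over the groups. XLOC_064378 (chr8:9245499-9248601, 3103 bp) had 3.92 FPKM in Swarna NP against 66.8 in Swarna EP, and 19.6 FPKM in Pokkali NP against 533 in Pokkali EP. Both loci were also lower in Swarna than in Pokkali at each stage. XLOC_007332 (chr1:29195808-29197160, 1353 bp) had 40.001 FPKM in Swarna NP against 308 in Swarna EP, and 11.8 FPKM in Pokkali NP against 404 in Pokkali EP. XLOC_051300 (chr5:26897898-26898852, 955 bp) had 1.18 FPKM in Swarna NP against 27.4 in Swarna EP, and 1.03 FPKM in Pokkali NP against 23.97 in Pokkali EP. XLOC_008060 (chr1:35956910-35959251) had 2.96 FPKM in Swarna NP against 32.9 in Swarna EP, and 2.08 FPKM in Pokkali NP against 40.8 in Pokkali EP. The last 2 loci had nearly equal levels in Swarna and Pokkali at each stage.

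Some loci were lower in NP mainly in Swarna. XLOC_045156 (chr4:32619332-32619911) had 0.0708 FPKM in Swarna NP against 26.3 in Swarna EP, and 7.72 FPKM in Pokkali NP against 16.5 in Pokkali EP. XLOC_003270 (chr1:32461285-32461572, 288 bp) had 0.715 FPKM in Swarna NP against 31.4 in Swarna EP, and 35.4 FPKM in Pokkali NP against 88.3 in Pokkali EP. The row 305 bp from it, LOC_Os01g56330, had 44.5, 56.9, 50.6 and 70.9 FPKM in Swarna NP, Swarna EP, Pokkali NP and Pokkali EP and did not share the low Swarna NP value.

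The pattern of groups in which a locus reached 1 FPKM was narrower among unnamed loci. In a single group were 925 (48.002%), against 13.4% of the named rows, and in all 4 groups 446 (23.1%), against 63.7%. The single group was Swarna NP for 405 loci, Swarna EP for 244, Pokkali NP for 156 and Pokkali EP for 120, and their median level in it was 1.40, 1.28, 1.25 and 1.36 FPKM. Most of these loci were therefore just above the threshold, where the label of a single group rests on a small difference. The highest in Swarna NP alone were XLOC_026454 and XLOC_026453. The highest in Swarna EP alone were XLOC_043017 (chr4:11091171-11091417, 247 bp) with 10.9 FPKM and XLOC_056740 (chr6:20189370-20190167, 798 bp) with 10.4 FPKM, both listed at 0 in the other 3 groups.

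In Pokkali NP the highest such locus was XLOC_057287 (chr6:25995991-25996819), with 0.0256 FPKM in Swarna NP and a listed 0 in Swarna EP, against 8.35 FPKM in Pokkali NP and 0.0809 in Pokkali EP. XLOC_022306 (chr12:12460000-12465315) had 0.0717 FPKM in Swarna NP and a listed 0 in Swarna EP, against 5.71 FPKM in Pokkali NP and 0.951 in Pokkali EP. In Pokkali EP, XLOC_012999 (chr10:20453285-20460527) was the highest, with 0.130 FPKM in Swarna NP, a listed 0 in Swarna EP, 0.587 FPKM in Pokkali NP and 10.1 in Pokkali EP. It shared its span with a row of LOC_Os10g38196 that had at most 0.128 FPKM in Swarna NP, Swarna EP and Pokkali NP and 3.69 FPKM in Pokkali EP. A row of the same name in the other run did not share this pattern, with 1.39 FPKM in Swarna NP, a listed 0 in Swarna EP, 0.162 FPKM in Pokkali NP and 0.127 in Pokkali EP. XLOC_060414 (chr7:26527010-26539380) had 0.133 FPKM in Swarna NP, 0.414 in Swarna EP, 0.270 in Pokkali NP and 5.88 in Pokkali EP. That each of these 4 Pokkali loci was under 1 FPKM in both Swarna groups follows from their selection on a single group.

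Values listed at 0 were more common among unnamed loci than among named rows in each group, and more common in Pokkali than in Swarna. They made up 178 loci (9.24%) in Swarna NP, 256 (13.3%) in Swarna EP, 332 (17.2%) in Pokkali NP and 412 (21.4%) in Pokkali EP. Among the named rows they made up 1.03, 1.84, 2.50 and 3.22% in the same order. Both Swarna stages and neither Pokkali stage reached 1 FPKM at 131 loci (6.80%, against 2.15% of the named rows), and 46 of these were listed at 0 in both Pokkali groups. Both Pokkali stages and neither Swarna stage did so at 90 loci (4.67%, against 1.47%), and 15 of these were listed at 0 in both Swarna groups.

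Cultivar differences in the same direction at both stages were also more frequent among unnamed loci. In Swarna, 188 (9.76%) were past 2-fold higher than in Pokkali at NP and at EP, against 3.96% of the named rows, and 152 (7.89%) were lower in Swarna at both stages, against 4.95%. On the Swarna side, XLOC_042035 (chr4:1325156-1327811, 2656 bp) had 8.17 FPKM in Swarna NP and 20.0 in Swarna EP and was listed at 0 in both Pokkali groups. XLOC_023790 (chr2:997759-998912) had 11.3 FPKM in Swarna NP and 17.2 in Swarna EP, against a listed 0 in Pokkali NP and 0.0617 FPKM in Pokkali EP. Both were detected at either stage of Swarna and hardly at all in Pokkali.

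On chromosome 9, a pair of loci was highest in Swarna NP. XLOC_072252 (chr9:11090627-11092537, 1911 bp) had 69.6 FPKM in Swarna NP and 3.76 in Swarna EP and was listed at 0 in both Pokkali groups. XLOC_072306 (chr9:11631570-11632255, 686 bp) had 35.7 FPKM in Swarna NP and 0.555 in Swarna EP, against 0.0848 FPKM in Pokkali NP and 0.0869 in Pokkali EP. The named row of 1 FPKM or more nearest to XLOC_072306 in its run was LOC_Os09g19350, at 48715 bp. It had 4.005 FPKM in Swarna NP and 4.58 in Swarna EP, against 0.00456 in Pokkali NP and 0.00613 in Pokkali EP. That row thus differed between the cultivars in the same direction but not between the stages of Swarna.

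A far higher level on the Swarna side was that of XLOC_005287 (chr1:7761728-7766034, 4307 bp), with 980 FPKM in Swarna EP against 11.1 in Pokkali EP, an 88.6-fold difference, and 80.4 FPKM in Swarna NP against 20.8 in Pokkali NP. It was lower in NP in Swarna (log2 ratio −3.60) and somewhat higher in NP in Pokkali (0.88). It shared its span with LOC_Os01g13840, whose row had 0.380 FPKM in Swarna NP, 1.03 in Swarna EP, 0.0169 in Pokkali NP and a listed 0 in Pokkali EP. The named row thus differed between the cultivars in the same direction at a far lower level.

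On the Pokkali side, XLOC_032579 (chr3:15159911-15162141, 2231 bp) had 0.504 FPKM in Swarna NP and a listed 0 in Swarna EP, against 31.7 FPKM in Pokkali NP and 21.0 in Pokkali EP. XLOC_011208 (chr10:2124585-2124894, 310 bp) had 2.25 FPKM in Swarna NP and 28.0 in Swarna EP, against 109 in Pokkali NP and 121 in Pokkali EP. XLOC_062123 (chr7:15098716-15098931, 216 bp) was listed at 0 in both Swarna groups and had 20.7 FPKM in Pokkali NP and 4.91 in Pokkali EP. All of these were lower in Swarna at both stages. XLOC_021447 (chr12:3781977-3782489) had 0.455 FPKM in Swarna NP and a listed 0 in Swarna EP, against 6.33 FPKM in Pokkali NP and 15.8 in Pokkali EP. XLOC_052630 (chr6:9478112-9478853) had 0.672 FPKM in Swarna NP and a listed 0 in Swarna EP, against 4.85 FPKM in Pokkali NP and 15.6 in Pokkali EP. These 2 were higher at EP than at NP in Pokkali and near or at 0 in Swarna.

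Unnamed loci lay close to named rows in many cases. Of the 1923 loci in the first and second runs, 220 shared the span of a named row of 1 FPKM or more. The other 1703 had a median distance of 3727 bp to the nearest such row, with 419 (24.6%) within 1000 bp and 473 (27.8%) farther than 10000 bp. The likeness of an unnamed locus to its nearest named row was described by Pearson's r of their log2 ratios across loci, which share the same 4 columns. Loci that share a span have the same nearest row of a run, so each n below counts loci and not separate neighbours. A span on chromosome 12 with 23 of the loci is the largest such case.

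Likeness of the stage ratios was greatest for rows of the same run within 500 bp or in a shared span. For the nearest named row of the same run, r of the Swarna NP/EP ratios was 0.47 within a shared span (n = 168) and 0.48 at 1 to 500 bp (n = 199). It was 0.23 up to 1000 bp (n = 85), 0.30 up to 2000 bp (n = 105), 0.18 up to 5000 bp (n = 282), 0.10 up to 10000 bp (n = 268) and 0.00 beyond that (n = 816). In Pokkali, r was 0.39 within a shared span, 0.45 at 1 to 500 bp and 0.03 beyond 10000 bp. The correlation was thus smaller beyond 500 bp, though not in even steps, and near 0 for the farthest neighbours.

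For the nearest row of the other run, r was lower at short range, at 0.31 within a shared span (n = 149) and 0.18 at 1 to 500 bp (n = 142) in Swarna, and 0.12 and 0.01 in Pokkali. Among the unnamed loci within 500 bp of a named row of the same run, both were past 2-fold NP/EP in 60 cases in Swarna, and 51 of these had the same direction. In Pokkali this was so for 15 of 16 cases. The ratios between cultivars gave 0.41 at EP and 0.44 at NP for neighbours of the same run at 1 to 500 bp, and 0.08 and 0.22 for those of the other run. This order did not hold in every class. Within a shared span r was 0.37 for both runs at EP, and 0.51 for the same run against 0.37 for the other at NP. Between 500 and 1000 bp it was 0.01 at EP and −0.03 at NP for the same run, against 0.26 and 0.23 for the other.

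**Figure D4:**
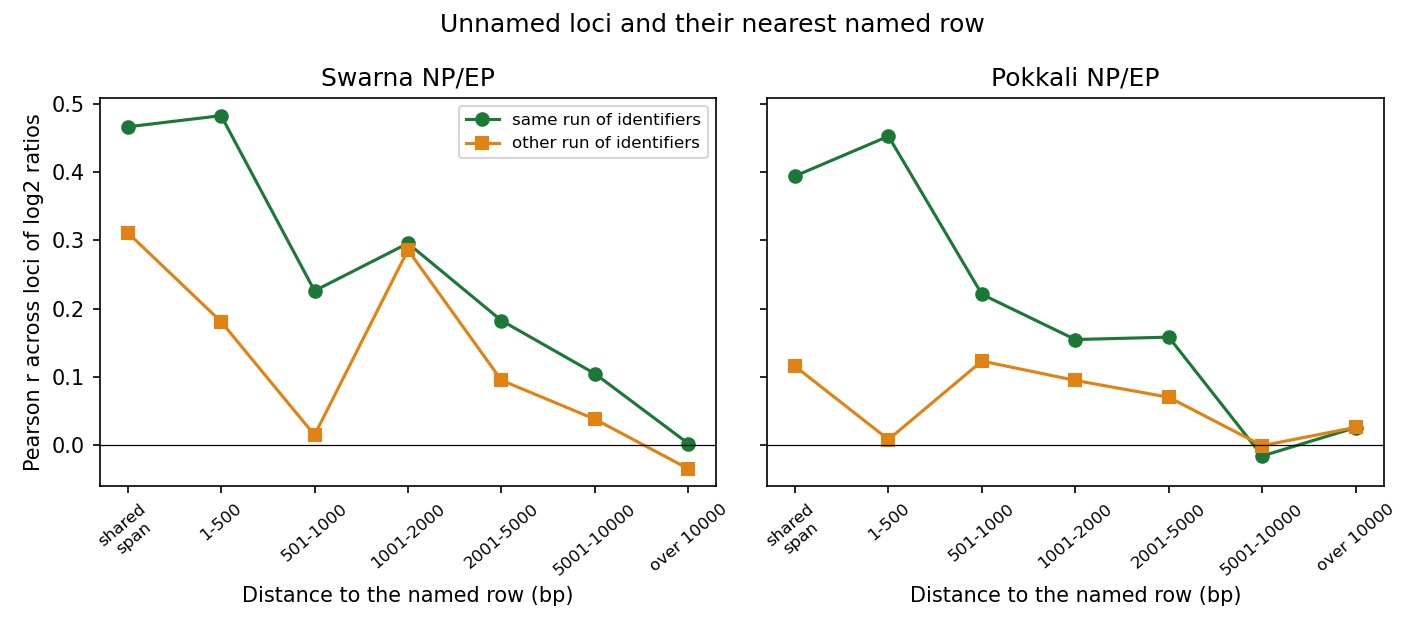
Pearson's r across unnamed loci between their log2 NP/EP ratio and that of the nearest named row of 1 FPKM or more, by distance in bp, in Swarna (left panel) and Pokkali (right panel). For rows of the same run of identifiers (circles) r is 0.48 and 0.45 at 1 to 500 bp and near 0 beyond 10000 bp, and for rows of the other run (squares) it is 0.18 and 0.01 at 1 to 500 bp.

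Neighbours also went with the cultivar difference in part. Of the 188 loci higher in Swarna at both stages, 34 (18.1%) had a nearest named row that was likewise higher at both, while over all 1923 loci the nearest row was so for 143 (7.44%). Of the 152 loci lower in Swarna at both stages, 18 (11.8%) had such a neighbour, against 91 (4.73%) over all loci. Most loci that differed between the cultivars therefore lay next to named rows that did not differ in this way.

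In 46 spans, 1 unnamed locus of each run faced the other and both belonged to the 1927. Such pairs with at least 1 of the 1927 loci numbered 207, and only the 46 are described here. In these both rows had to reach 1 FPKM, which limits how small the share of the lower locus can be where the higher one is itself low. The shares below are therefore in part set by the selection. In the 7 pairs whose higher locus had a mean of 100 FPKM or more, the lower one was at 0.0371 to 0.982% of it (median 0.124%). In the other 39 pairs the lower locus was at a median of 22.5% of the higher. An example is XLOC_060149, which shares the span of XLOC_062983 and had 4.24 FPKM in Swarna NP, 2.67 in Swarna EP, 5.76 in Pokkali NP and 2.67 in Pokkali EP, against 6559 to 18182 FPKM in its partner. Whether both loci of such a pair hold reads of the same RNA was not tested.

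Along the genome, unnamed loci were spread over all chromosomes. They made up between 6.31% (chromosome 3) and 12.7% (chromosome 12) of the rows of 1 FPKM or more on the 12 chromosomes, and 7 of 22 such rows on the unplaced sequence Un. Per Mb there were 3.95 (chromosome 9) to 6.25 (chromosome 12). A 1 Mb window that held any had a median of 4 and the most was 42, at chr12:13000001-14000000, followed by 16 at chr4:22000001-23000000. The highest density was thus in a single window of chromosome 12, far ahead of any other.

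Of the 42 loci of that window, 23 came from a single cluster. The span chr12:13353598-13408455 (54858 bp) held 36 rows, of which 25 were unnamed and 23 of these reached 1 FPKM. The other 11 rows carried the names LOC_Os12g23580, LOC_Os12g23590, LOC_Os12g23600 or LOC_Os12g23610. Of the 23 unnamed loci, 10 were of the first run and 13 of the second, 14 reached 10 FPKM and 19 reached 1 FPKM in all 4 groups. The next most crowded span, chr1:39114681-39127408, held 6 of the loci, and 1679 spans held 1 each. The cluster on chromosome 12 was thus unlike most unnamed loci in being detected in every group.

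The highest locus of the cluster was XLOC_019816, with 703 FPKM in Swarna NP, 1108 in Swarna EP, 1343 in Pokkali NP and 1297 in Pokkali EP. XLOC_022401 followed with 49.3, 61.3, 109 and 57.9 FPKM in the same order. XLOC_022402 had 0.275 FPKM in Swarna NP, against 11.9 in Swarna EP, 19.0 in Pokkali NP and 21.8 in Pokkali EP. XLOC_019811 had 6.60 FPKM in Swarna NP and 5.49 in Swarna EP, against 0.906 in Pokkali NP and 0.519 in Pokkali EP, and was the only locus of the cluster at least 2-fold higher in Swarna at NP.

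Over the 23 loci the median level was 5.13 FPKM in Swarna NP, 11.9 in Swarna EP, 9.61 in Pokkali NP and 8.15 in Pokkali EP. None was at least 2-fold higher and 5 were lower in Swarna NP than in Swarna EP, while 4 were higher and none lower in Pokkali NP than in Pokkali EP. In Swarna relative to Pokkali, 3 were higher and none lower at EP, and 1 was higher and 4 were lower at NP. Loci of a single cluster share position and possibly transcripts, so they do not count as separate cases. Within the cluster, XLOC_019823, a row of LOC_Os12g23610, had 3.33 FPKM in Swarna NP, against 111 in Swarna EP, 108 in Pokkali NP and 177 in Pokkali EP, and thus shared the low value of XLOC_022402 in Swarna NP. At most 5 of the 23 entered any count of unnamed loci past 2-fold, so leaving this span out could not move a count by more than 1.5 times.

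**Figure D5:**
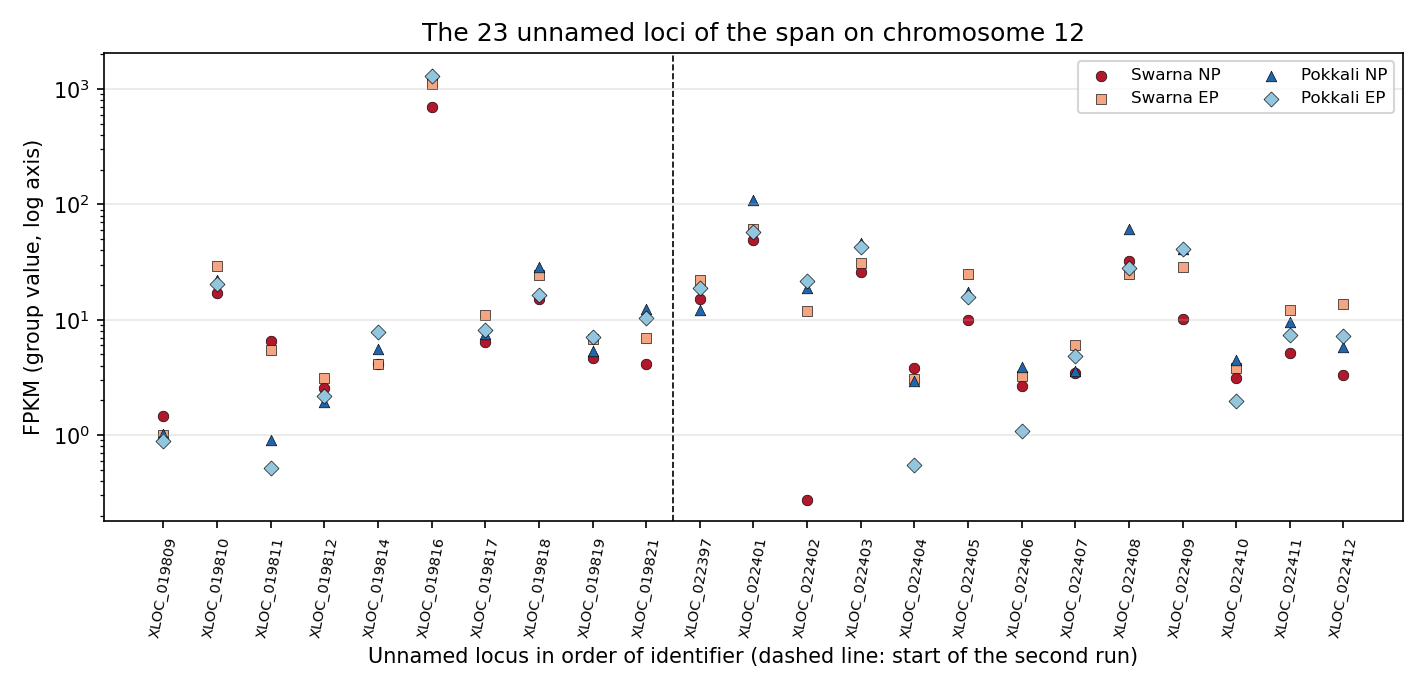
FPKM (log axis) of the 23 unnamed loci of the span on chromosome 12 in Swarna NP, Swarna EP, Pokkali NP and Pokkali EP, in order of identifier, with a dashed line between the first and the second run of identifiers. XLOC_019816 lies between 703 and 1343 FPKM, and XLOC_022402 is at 0.275 FPKM in Swarna NP against 11.9 to 21.8 FPKM in the other groups.

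The loci of the smaller cluster on chromosome 1 were likewise lowest in Swarna NP in most cases. XLOC_004012 had 22.8 FPKM in Swarna NP against 38.7 in Swarna EP, and 46.4 FPKM in Pokkali NP against 45.1 in Pokkali EP. XLOC_008411 had 4.23 FPKM in Swarna NP against 9.40 in Swarna EP, and 8.36 FPKM in Pokkali NP against 13.1 in Pokkali EP. XLOC_008405 had 2.24 FPKM in Swarna NP against 7.25 in Swarna EP, and 6.99 FPKM in Pokkali NP against 4.05 in Pokkali EP. All 6 loci of this span were lower in Swarna NP than in Swarna EP, by at least 2-fold in XLOC_008411 and XLOC_008405, and all 6 were lower in Swarna NP than in Pokkali NP.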

How the data were processed

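RNA of rice peduncles was prepared with a stranded total RNA kit and sequenced in 12 libraries. Per the study's methods and the submitters' processing notes, reads passed the NGSQC Toolkit, were placed by HISAT2 2.1.0 on release 7 of the genome by the Rice Genome Annotation Project, and were assembled by StringTie 1.3.3b. Cuffmerge joined the assemblies, and the authors used Cuffdiff and Cufflinks for expression. The strand options named for the tools differ, and the effect of this on the values was not tested. The deposited FPKM values, 1 per locus and group with 3 libraries combined, were used unscaled.

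The loci and the rules were chosen with earlier results of these data known. Rows without a gene name and with at least 1 FPKM in at least 1 of the 4 groups were kept. Ratios are log2 of FPKM plus 0.5, called at 2-fold, and a listed 0 gets no fold. The planned fallback without a test was used, since no replicate values were present. Spans were counted from 1, because the deposited starts count from 0, and distances run between spans. Loci named are the 10 of highest mean, the 4 largest ratios in each direction of each comparison at 10 FPKM or more, the 4 largest mean NP/EP ratios in each direction shared by both cultivars, the 2 highest of each single group, the 2 longest and 2 shortest spans, those beside the threshold, and their neighbours. Members of the crowded spans, of the short run of identifiers and of pairs were named after their values were seen. Sequences and annotation classes were not used here. The code was tested on simulated data. Alternatives were the constant, the minimum level, 3 scalings, leaving out loci in named spans, and, added after the data were seen, leaving out loci with a listed 0 or the most crowded span. Python 3.11.15, numpy 2.4.6, pandas 2.3.3 and matplotlib 3.10.9 were used.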

Additional observations from a re-analysis of the deposited data

How the results depend on the processing

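The 8 counts of unnamed loci past 2-fold were recomputed under 10 alternatives, giving 80 counts, of which 54 stayed within 1.5 times of the count as reported and 26 did not. Median-ratio scaling, quantile normalization, leaving out loci in named spans and leaving out the most crowded span moved none beyond it. The last of these could not do so, since that span held only 23 of the 1927 loci. For Pokkali NP/EP higher, a constant of 0.1 gave 435 and a constant of 1 gave 151. With a minimum of 10 FPKM (279 loci), the higher and lower counts were 76 and 74 for Swarna NP/EP, 47 and 50 for Pokkali NP/EP, 31 and 45 for Swarna/Pokkali at EP, and 67 and 75 for Swarna/Pokkali at NP. With no minimum (8955 loci), they were 1216 and 710, 484 and 374, 743 and 430, and 1351 and 653 in the same order. With equal column sums (2047 loci), Swarna NP/EP gave 246 and 917, and 705 loci were higher in Swarna than in Pokkali at EP. Among the 1262 loci above 0 in all groups, a set chosen after the data were seen, 239 were higher and 291 lower for Swarna NP/EP. The direction was thus the reverse of the 482 and 420 of all unnamed loci. These were 18.9% and 23.1%, against 26.5% and 24.8% of the named rows above 0 in all groups. For Swarna/Pokkali at EP, 184 (14.6%) were higher and 123 (9.75%) lower, against 6.51% and 9.67% of those named rows. For Swarna/Pokkali at NP, 241 were higher and 239 lower, so the excess on the Swarna side at NP was not seen there. Sets with another number of loci move the counts by construction. Quantile normalization moved the median of all rows for Swarna NP/EP by −0.12. No paired analysis was possible because the table holds 1 value per group, and leaving out a replicate was not run for the same reason. Depth cannot be read from FPKM without counts, so loci near 1 FPKM are the least certain.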
